A study of Danio rerio with 10 samples.

Results

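The genes described here are 10 zebrafish genes of cholesterol synthesis and uptake: hmgcs1, hmgcra, idi1, fdps, sqlea, lss, cyp51, ldlra, srebf2 and insig1. They were found by name in the Ensembl annotation deposited with the counts, and each name matched 1 row of the 25911 genes in the count table. RNA was measured by RNA-seq in 5 pools of can4-/- larvae, which are homozygous for a mutation in top2a, and in 5 pools of their WT siblings. Both genotypes came from an incross of heterozygous can4 fish on the AB background, were collected whole at 3 dpf (days post fertilization) and were genotyped larva by larva before 9 larvae were pooled per sample, which makes 45 larvae per genotype. No agent was given to either genotype. Homozygotes of heterozygous mothers start with maternal top2a mRNA, and a whole larva holds mutant cells of every tissue. All 10 genes passed the filter on low counts, with raw counts between 71 (sqlea) and 5930 (idi1) in any pool.

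Animal cells build cholesterol from acetyl-CoA. The early steps make mevalonate, the next ones turn it into isoprenoid units and squalene, and the late ones close the rings and trim the sterol. When sterols in the endoplasmic reticulum run low, the transcription factor SREBP2 is released from its anchor and raises the genes of nearly every step of the pathway together with the LDL receptor, which brings in cholesterol from lipoproteins. When sterols are plentiful, the INSIG proteins hold SREBP2 back and the same genes fall. A larva at this age also receives lipid from its yolk, which the yolk syncytial layer packs into lipoproteins. These roles are known mainly from mammals, and they are background to the counts below.

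In can4-/- larvae 4 of the 7 synthesis enzymes and the control gene srebf2 fell, while the receptor gene ldlra rose. Of the 10 genes, 5 were thus lower, 1 was higher and 4 did not pass at an adjusted p under 0.05 from edgeR's quasi-likelihood test. The largest decrease was that of hmgcra, which fell by 59.5%, and the increase was that of ldlra, 1.97-fold higher in can4-/- than in WT. Over all 23039 genes tested, 36.3% passed with can4-/- higher and 36.9% with can4-/- lower, against 1 of 10 and 5 of 10 here, so the counts by themselves set these genes little apart from the table. The median log2 fold change (can4-/- over WT) of the 10 genes was -0.29, against 0.00 for all genes tested. The pools of the genotypes stood apart, with every can4-/- pool on one side of every WT pool, for 1 gene upward and 5 downward. Over all genes 29.4% stood apart with can4-/- higher and 31.4% with can4-/- lower. The split of calls depends on how libraries are scaled. When libraries were scaled by their totals instead of TMM, log2 fold changes moved by a median of -0.17, 5920 genes were higher and 10996 lower, and of the 10 genes 1 was higher and 7 lower.

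**Figure D1:**
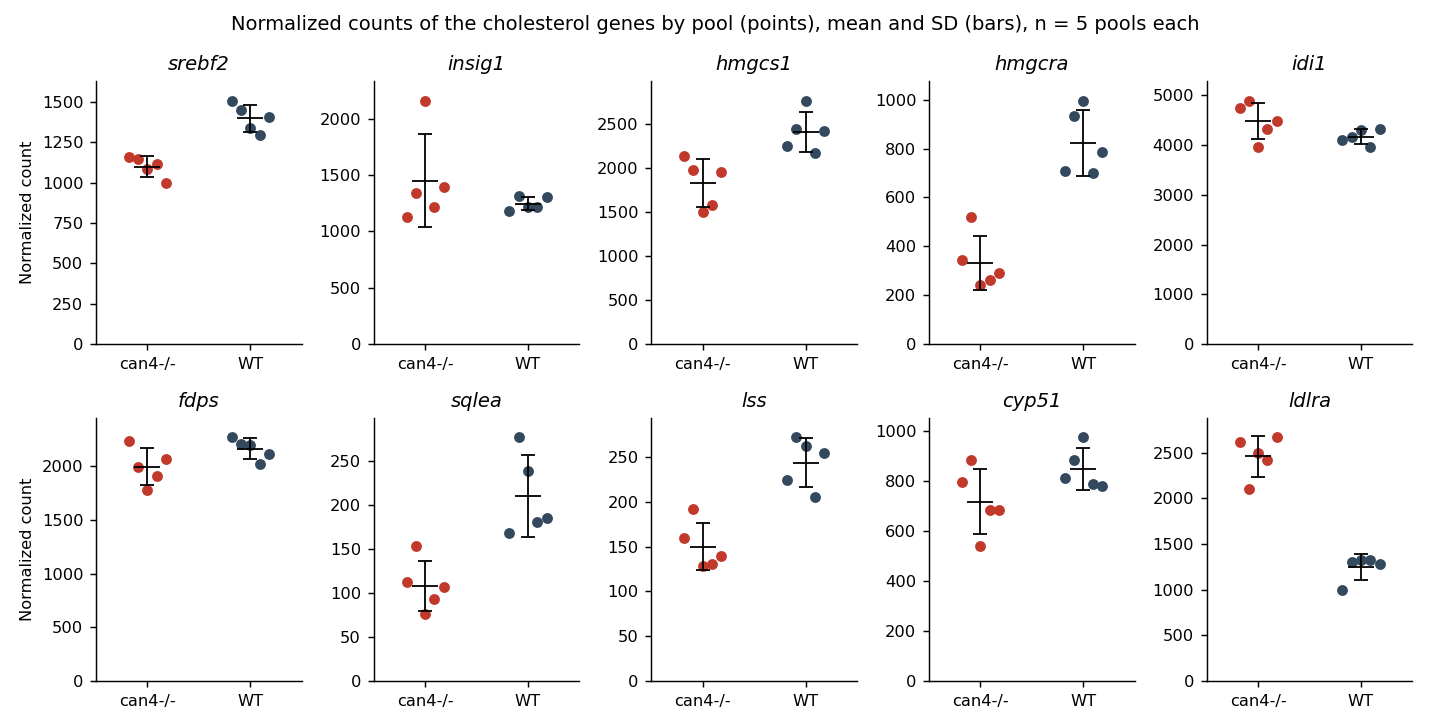
Normalized counts (y axis, from 0) of the 10 cholesterol genes in each pool, with can4-/- left and WT right in each panel; points are pools, the bars are the mean and SD of 5 pools. The genotypes do not overlap for srebf2, hmgcs1, hmgcra, sqlea, lss and ldlra, and overlap for insig1, idi1, fdps and cyp51.

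The libraries held 30098991 to 38106622 counts per can4-/- pool and 29281449 to 45544046 per WT pool, and the 20 genes with most counts took 16.9% to 17.7% of a can4-/- library and 14.1% to 14.8% of a WT library. Values below are normalized counts, which are counts divided by the effective library size after TMM scaling and multiplied by the mean effective size. The targeted gene top2a had 675, 1358, 656, 635 and 688 normalized counts in can4-/- replicates 1 to 5, against 9082, 8498, 8646, 8533 and 8498 in WT replicates 1 to 5. The mutant pools were thus low in the RNA that their label says is mutated, and can4-/- replicate 2 stood above the other mutant pools. Whole larvae mix every tissue, and in such bulk RNA fewer cells of a type and less RNA per cell cannot be told apart.

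Of the 2 control genes srebf2 was lower and insig1 did not pass. The gene srebf2, which encodes SREBP2 and lies on chromosome 3 of GRCz11 from 1107102 to 1130892, had 1157, 1145, 1086, 1115 and 999.5 normalized counts in can4-/- replicates 1 to 5, against 1509, 1448, 1337, 1295 and 1404 in WT replicates 1 to 5. The genotypes did not overlap, and the pools of each lay close together. Its log2 fold change was -0.35 (standard error [SE] 0.054, edgeR adjusted p = 4.88e-05), so that it fell by 21.3%. The gene insig1, which encodes a sterol-sensing protein that holds SREBP2 in the endoplasmic reticulum and is itself an SREBP target in mammals, lies on chromosome 7 from 41007773 to 41014773. It had 1131, 1344, 2161, 1220.0 and 1399 normalized counts in can4-/- replicates 1 to 5, against 1178, 1317, 1217, 1217 and 1305 in WT replicates 1 to 5. The WT pools were tight, with a coefficient of variation of 4.87%, and the can4-/- pools spread over 28.3% because of can4-/- replicate 3. The log2 fold change of 0.22 (95% interval -0.08 to 0.52) did not pass (edgeR adjusted p = 0.163), and without can4-/- replicate 3 it was 0.033 (edgeR adjusted p = 0.655). An antisense gene, si:dkey-151p11.2, overlaps insig1 on the other strand, with 3 to 11 counts per can4-/- pool and 4 to 16 per WT pool.

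The first committed steps both fell, and by unequal amounts. The gene hmgcs1 encodes the cytosolic HMG-CoA synthase and lies on chromosome 10 from 6010570 to 6034397. It had 2137, 1981, 1496, 1585 and 1955 normalized counts in can4-/- replicates 1 to 5, against 2245, 2441, 2766, 2169.8 and 2415 in WT replicates 1 to 5. The genotypes did not overlap, but the highest can4-/- pool and the lowest WT pool were close. The log2 fold change was -0.40 (SE 0.095, edgeR adjusted p = 0.00182). The gene hmgcra encodes HMG-CoA reductase, the rate-limiting enzyme of the pathway and the target of statins, and lies on chromosome 5 from 50972485 to 50992775. It had 345, 520.4, 243, 263 and 290.1 normalized counts in can4-/- replicates 1 to 5, against 707, 932, 996, 698 and 785 in WT replicates 1 to 5. The lowest WT pool was above the highest can4-/- pool, which was replicate 2, the pool with the most top2a among the mutants. The log2 fold change was -1.31 (SE 0.18, edgeR adjusted p = 1.51e-05), and it was -1.54 without can4-/- replicate 2. Of all genes tested, 6.64% had a lower log2 fold change than hmgcra.

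Of the steps between mevalonate and squalene, neither idi1 nor fdps passed the test, while mvk and mvda, given below, were lower. The gene idi1, on chromosome 24 from 3469373 to 3477103, encodes isopentenyl-diphosphate isomerase. It had 4747, 4889.5, 3954, 4324 and 4488 normalized counts in can4-/- replicates 1 to 5, against 4093, 4165, 4302, 3953 and 4318 in WT replicates 1 to 5. The 2 ranges overlapped, and the log2 fold change of 0.10 (95% interval -0.01 to 0.22) did not pass (edgeR adjusted p = 0.102). It turned to -0.069 with library totals and passed at 0.15 without can4-/- replicate 3 (edgeR adjusted p = 0.0134). The gene fdps, on chromosome 16 from 13993351 to 14025096, encodes farnesyl diphosphate synthase, whose product feeds sterols and the lipid anchors of proteins. It had 2239, 1992, 1776, 1909 and 2068 normalized counts in can4-/- replicates 1 to 5, against 2271, 2206, 2199.8, 2018 and 2117 in WT replicates 1 to 5. The log2 fold change of -0.12 (95% interval -0.24 to 0.01) did not pass (edgeR adjusted p = 0.0844), while without can4-/- replicate 1 it was -0.16 and passed (adjusted p = 0.0146) and with library totals it was -0.29 and passed (adjusted p = 0.000405). The span of fdps overlaps that of zgc:162509 on the same strand, which had 69 to 139 counts per can4-/- pool and 1 to 5 per WT pool, few beside the counts of fdps.

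The steps from squalene onward fell for sqlea and lss. The gene sqlea encodes squalene epoxidase, which adds oxygen to squalene and is a second point of control, and lies on chromosome 16 from 43401005 to 43413293. It had 112, 153, 76.3, 93.3 and 107 normalized counts in can4-/- replicates 1 to 5, against 169, 277, 239, 180.5 and 186 in WT replicates 1 to 5. No can4-/- pool reached a WT pool, although the spread within each genotype was wide. The log2 fold change was -0.95 (SE 0.18, edgeR adjusted p = 0.000316). The gene lss encodes lanosterol synthase, which closes the sterol rings, and lies on chromosome 9 from 38481780 to 38500391. It had 160.0, 192, 129, 131 and 139.7 normalized counts in can4-/- replicates 1 to 5, against 225, 272, 263, 206 and 255 in WT replicates 1 to 5. The genotypes did not overlap, and the log2 fold change was -0.70 (SE 0.12, edgeR adjusted p = 0.00013). The start of lss overlaps the end of mcm3ap on the same strand, which also fell (log2 fold change -0.22), so some reads of this stretch may count for either gene. Raw counts of mcm3ap were 1172 to 1676 per can4-/- pool and 1503 to 2364 per WT pool, many beside the 118 to 362 of lss over all pools. The gene cyp51, on chromosome 19 from 598657 to 617246, encodes lanosterol demethylase. It had 795, 884, 542, 686 and 686 normalized counts in can4-/- replicates 1 to 5, against 812, 886, 976, 789 and 780.3 in WT replicates 1 to 5. The ranges overlapped through can4-/- replicates 1 and 2, and the log2 fold change of -0.24 (95% interval -0.48 to -0.01) did not pass (edgeR adjusted p = 0.0595). It passed without can4-/- replicate 2, at -0.33 (adjusted p = 0.00904), without can4-/- replicate 1, at -0.28 (adjusted p = 0.0472), with library totals, at -0.41 (adjusted p = 0.00412), and in limma voom, at -0.26 (adjusted p = 0.0454).

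Among the 10 genes only the receptor gene ldlra was called in the other direction. The gene ldlra encodes an LDL receptor, the route by which cells take up cholesterol-rich lipoproteins, and lies on chromosome 3 from 19299309 to 19323689. It had 2618, 2105, 2490.3, 2419.7 and 2668 normalized counts in can4-/- replicates 1 to 5, against 998, 1303, 1328, 1322 and 1284 in WT replicates 1 to 5. Every can4-/- pool was far above every WT pool. The log2 fold change was 0.98 (SE 0.082, edgeR adjusted p = 1.02e-07), it was 0.91 without WT replicate 1, the lowest WT pool, and it was 0.80 with library totals. A 5S rRNA gene inside the span of ldlra had 5 to 15 counts per can4-/- pool and 2 to 7 per WT pool. Of all genes tested, 91.0% had a lower log2 fold change. In mammals the receptor and the synthesis enzymes are raised and lowered together by SREBP2, and in these larvae ldlra and the 4 enzymes that fell differed in direction. Within each pool ldlra had 4.04 to 10.2 counts per count of hmgcra in can4-/- larvae and 1.33 to 1.89 in WT, a ratio that no scaling of libraries changes, although it also carries the lengths of the genes. The log2 ratio was 2.94 ± 0.54 in can4-/- pools and 0.61 ± 0.21 in WT pools (SD, n = 5 each), a difference of 2.34. This and the other 2 ratios below were chosen after the values had been seen and are given as a description, with no test.

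Zebrafish carry second copies of several of these genes, and each copy was counted by itself. The gene hmgcrb, the other HMG-CoA reductase gene, had 1571, 1528, 1573, 1415 and 1504 normalized counts in can4-/- replicates 1 to 5, against 1320.2, 1348, 1318, 1287 and 1287 in WT replicates 1 to 5. It was higher in every can4-/- pool, with a log2 fold change of 0.21 (SE 0.040, edgeR adjusted p = 0.000321), but this was 0.04 and did not pass with library totals (adjusted p = 0.462). The counts of hmgcra were 0.154 to 0.340 of those of hmgcrb in can4-/- pools and 0.536 to 0.756 in WT pools. The log2 ratio differed by -1.56 (can4-/- minus WT), a ratio that likewise no scaling of libraries changes. For the receptor, ldlrb had 766, 733, 742, 761 and 666 normalized counts in can4-/- replicates 1 to 5, against 848, 720.2, 619.6, 564 and 823 in WT replicates 1 to 5. Its log2 fold change of 0.04 (SE 0.0996) did not pass (edgeR adjusted p = 0.739), and the log2 ratio of ldlra to ldlrb differed by 0.93 (can4-/- minus WT). The copy of squalene epoxidase, sqleb, was too low to be tested, with 0 to 2 counts in can4-/- pools and 6 to 24 in WT pools. The related genes insig2 and srebf1 are not such copies, since the annotation pairs them with the human symbols INSIG2 and SREBF1, not INSIG1 and SREBF2. Neither insig2 (log2 fold change 0.12, adjusted p = 0.121) nor srebf1, the factor of fatty acid synthesis (0.16, adjusted p = 0.251), passed in edgeR. Reads shared between close copies cannot be told from these counts.

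**Figure D2:**
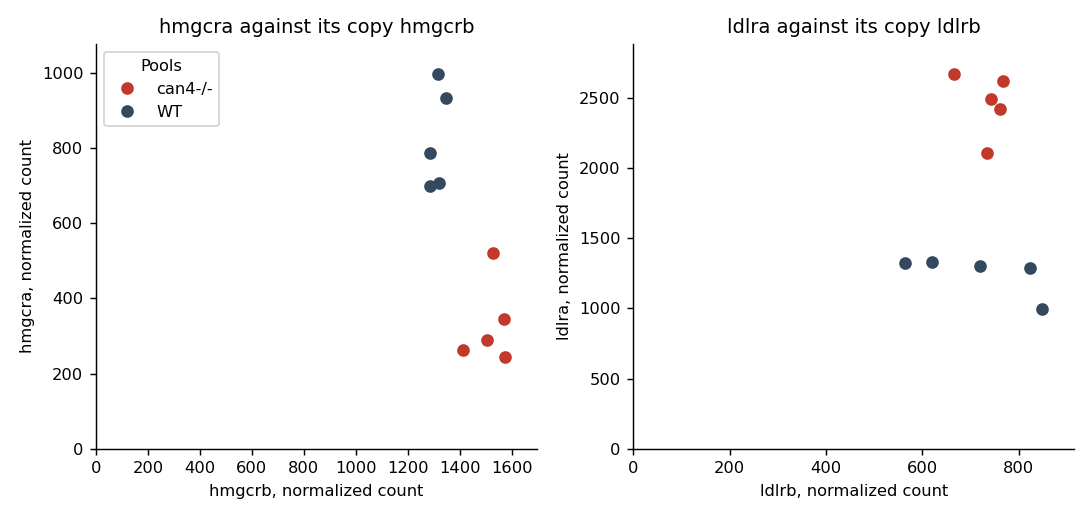
Each point is a pool, with hmgcra (y) against hmgcrb (x) on the left and ldlra (y) against ldlrb (x) on the right, all in normalized counts with axes from 0. The can4-/- pools lie below the WT pools in hmgcra and above them in ldlra, while hmgcrb spans 1287 to 1573 and ldlrb 564 to 848 over all pools.

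Beyond the 7 enzymes among the 10 genes, 16 further genes of the pathway were tested. They are called further enzymes here, although ERG28 is not itself an enzyme. Of these 9 were lower, 1 (hmgcrb) was higher and 6 did not pass, with a median log2 fold change of -0.28. Taken with the 7, 13 of 23 synthesis genes fell and 1 rose at an adjusted p under 0.05 from edgeR, beside 36.9% of all genes lower and 36.3% higher. With library totals the further enzymes gave 11 lower and 0 higher, and 9 of the 10 calls stayed in place. Over all 23039 genes tested, library totals gave 10996 lower and 5920 higher. In the mevalonate steps mvk, mevalonate kinase, had a log2 fold change of -0.69 (SE 0.099) and mvda, the decarboxylase that follows, -0.72 (SE 0.098), both lower with no overlap of pools. Between them pmvk, phosphomevalonate kinase, stood at 0.17 (SE 0.13) and did not pass, and neither did acat2 (0.03) at the entry nor fdft1, squalene synthase (-0.23), which had few counts.

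After the ring closure the genes of the sterol C14-reductases were the lowest. The gene lbr, whose product is both a sterol C14-reductase and an anchor of the nuclear lamina, had 1622, 1926, 1662, 1629.5 and 1349 normalized counts in can4-/- replicates 1 to 5, against 3521, 3288, 3511, 3219.8 and 2979 in WT replicates 1 to 5. Its log2 fold change was -1.01 (SE 0.078, edgeR adjusted p = 4.46e-08). The gene tm7sf2, which encodes the other C14-reductase, stood at -0.80 (SE 0.089). Other late genes were lower by less, with sc5d at -0.53, ERG28 at -0.48, hsd17b7 at -0.45, ebp at -0.33 and nsdhl at -0.24, all past the threshold in edgeR. The late reductase gene dhcr7 (-0.09) and the C4-methyl oxidase gene msmo1 (0.09) did not pass. The decreases were thus found at early, middle and late steps, with steps that did not pass among them.

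**Figure D3:**
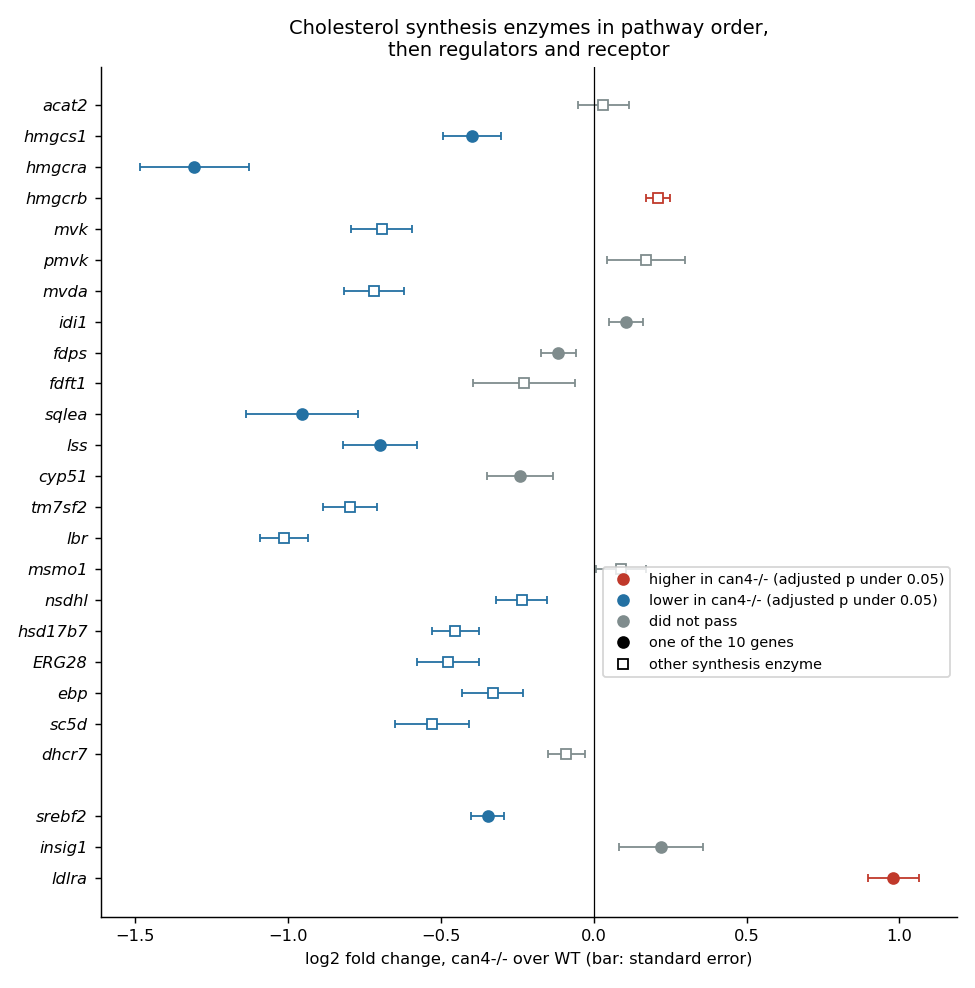
Log2 fold change (x axis, can4-/- over WT, bars are standard errors) of synthesis enzymes from the top in pathway order, then srebf2, insig1 and ldlra; filled circles are the 10 genes and open squares the further enzymes, blue lower, red higher and grey not passing at an adjusted p under 0.05. Of the synthesis genes 13 are blue and 1, hmgcrb at 0.21, is red (0.04 and not passing with library totals).

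Most genes that process and hold SREBP changed by small amounts. Of 10 genes tested, 5 were higher, 2 lower and 3 did not pass, beside 36.3% of all genes higher and 36.9% lower. With library totals 2 were higher and 3 lower, where over all genes tested 5920 were higher and 10996 lower. The gene scap, which encodes the escort that carries SREBP to the Golgi, had 535, 565, 541, 508 and 474 normalized counts in can4-/- replicates 1 to 5, against 636, 609, 620.3, 629 and 618 in WT replicates 1 to 5. All can4-/- pools were below all WT pools, and the log2 fold change was -0.25 (SE 0.053, edgeR adjusted p = 0.000831). The reductase and INSIG degradation genes faf2 (0.32), amfra (0.26) and rnf139 (0.23) were higher, as was the protease gene mbtps2 (0.16), which cuts SREBP in the Golgi. With library totals mbtps2 turned to -0.020, and amfra and rnf139 were at 0.08 and 0.06 and did not pass. The other Golgi protease gene, mbtps1, stood at 0.013 and did not pass. The largest increase on the list was that of the low gene amfrb, at 1.29 (SE 0.20) with 37.6 ± 5.86 normalized counts in can4-/- and 15.1 ± 3.36 in WT (SD, n = 5 each), named here after its value was seen.

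Of 19 genes of uptake and of sterol transport inside the cell that were tested, 11 were higher, 4 lower and 4 did not pass, beside 36.3% of all genes higher and 36.9% lower. Their median log2 fold change was 0.35. Library totals gave 10 higher and 5 lower, where over all 23039 genes tested 5920 were higher and 10996 lower. The endocytic receptor gene lrp1ab had the largest increase, at 1.22 (SE 0.064), and npc1, which moves cholesterol out of lysosomes, had 5612, 4412, 5519, 4952 and 4925 normalized counts in can4-/- replicates 1 to 5, against 2940.2, 2812, 2684, 2729.7 and 2926 in WT replicates 1 to 5. Its log2 fold change was 0.85 (SE 0.062, edgeR adjusted p = 2.48e-08), with no overlap of pools. The LDL receptor adaptor gene ldlrap1b stood at 0.75 (SE 0.12) and lipf, which the annotation pairs with the human lysosomal acid lipase gene LIPA, at 0.66 (SE 0.044). On the lower side were the VLDL receptor gene vldlr at -1.02 (SE 0.076), NPC1L1, the intestinal cholesterol transporter gene, at -1.30 (SE 0.21), and the gene named NPC2 (1 of many) at -1.39 (SE 0.12). In contrast npc2, a gene with more counts paired with the same human symbol, was higher at 0.35 (SE 0.053) with no overlap of pools.

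The ubiquitin ligase genes mylipa and mylipb, named here because of their values, have a mammalian counterpart, IDOL, that marks the LDL receptor for breakdown and is raised by the sterol sensor LXR. Both were higher in can4-/- than in WT, at 0.61 (SE 0.060) and 0.60 (SE 0.078) on the log2 scale, with no overlap of pools.

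Of 24 genes of sterol efflux, esterification and breakdown, 11 were higher, 8 lower and 5 did not pass. These shares lie near those over all genes (36.3% higher and 36.9% lower), so the counts are no result about this list. Library totals gave 8 of each direction, where over all 23039 genes tested 5920 were higher and 10996 lower. The cholesterol exporter genes abca1a and abca1b, targets of LXR in mammals, rose by a similar amount: abca1a had 8812, 7791, 10229, 7679 and 8842 normalized counts in can4-/- replicates 1 to 5, against 4048, 4068, 3678, 4121 and 4301 in WT replicates 1 to 5, a 2.14-fold increase (SE 0.074 on the log2 scale, edgeR adjusted p = 1.08e-08). That of abca1b was 2.06-fold (SE 0.072 on the log2 scale). Of the enzymes, lcat, which esterifies cholesterol on lipoproteins, was higher at 1.69 (SE 0.11), and cyp46a1.3, of the family of cholesterol 24-hydroxylase, at 1.02 (SE 0.097). In contrast abcg1, another exporter gene and LXR target, was lower at -1.09 (SE 0.098), and soat2, which esterifies cholesterol in the liver and gut, at -0.98 (SE 0.29). Normalized counts of soat2 ran from 56.2 to 229 in can4-/- pools, with 251 in the lowest WT pool. The related gene soat1 was higher at 0.74 (SE 0.12) with no overlap of pools. The bile acid genes cyp7a1, the rate-limiting enzyme of bile acid synthesis, and cyp8b1 were lower at -2.60 (SE 0.26) and -1.90 (SE 0.18). For cyp7a1 the normalized counts were 51.2, 68.4, 53.8, 49.3 and 54.5 in can4-/- replicates 1 to 5, against 148, 361, 432, 436 and 317 in WT replicates 1 to 5, with WT replicate 1 the lowest WT pool as it was for ldlra.

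Of 13 fatty acid synthesis genes 6 were higher, 4 lower and 3 did not pass, beside 36.3% higher and 36.9% lower over all genes, while library totals gave 2 higher and 5 lower. The stearoyl-CoA desaturase gene scdb fell by 1.13 on the log2 scale (SE 0.060), while scd, a gene of few counts paired with the same human symbol and named after its value was seen, was higher at 1.16 (SE 0.19) with no overlap of pools. The fatty acid synthase gene fasn fell by 0.33 (SE 0.049), whereas elovl5, a fatty acid elongase, was higher at 1.15 (SE 0.090). The list of non-sterol isoprenoids, such as dolichol, ubiquinone and the lipid anchors of proteins, held 12 genes tested. Of these 4 were higher, 2 lower and 6 did not pass, beside the same 36.3% higher and 36.9% lower over all genes. All 12 lay within -0.32 and 0.40, and with library totals none was higher and 5 were lower. For this list and the fatty acid list, library totals gave 5920 higher and 10996 lower over all 23039 genes tested. The largest increase there was ggps1, geranylgeranyl diphosphate synthase, at 0.40 (SE 0.11).

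**Figure D4:**
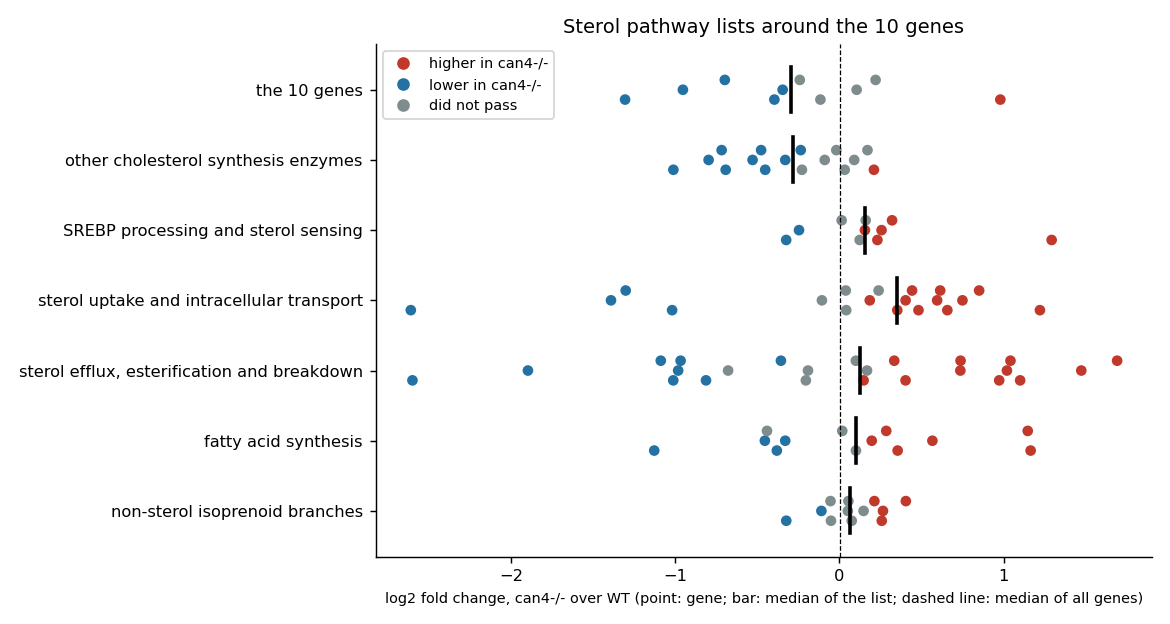
Log2 fold changes (x axis, can4-/- over WT) of the 10 genes and of the lists around them, 1 row a list; a point is a gene, coloured by its call, the black bar is the median of the list and the dashed line the median of all genes tested. The 10 genes and the further enzymes have medians of -0.29 and -0.28, and the uptake and transport list has a median of 0.35.

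Within a genotype the same pools were high or low for several of the enzymes. In can4-/- larvae replicate 2 had the highest count of 5 of the 10 genes (hmgcra, sqlea, lss, cyp51 and idi1), and replicate 3 had the lowest count of 7 (hmgcs1, hmgcra, idi1, fdps, sqlea, lss and cyp51). In the same replicate 3 insig1 was at its highest. In WT larvae replicate 4 had the lowest count of 6 of the 10 genes and replicate 3 the highest of 4. Among the enzymes the deviations from the genotype mean were widest for hmgcra, which stood at 0.70 in can4-/- replicate 2 and -0.39 in can4-/- replicate 3 on the log2 scale, and for sqlea, at 0.54 and -0.47. The coefficient of variation over pools was larger in can4-/- than in WT for 8 of the 10 genes, for example 33.7% against 16.3% for hmgcra, and it was smaller for srebf2 and ldlra. Separate clusters of 5 pools are too few for a correlation across samples, so none is given.

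**Figure D5:**
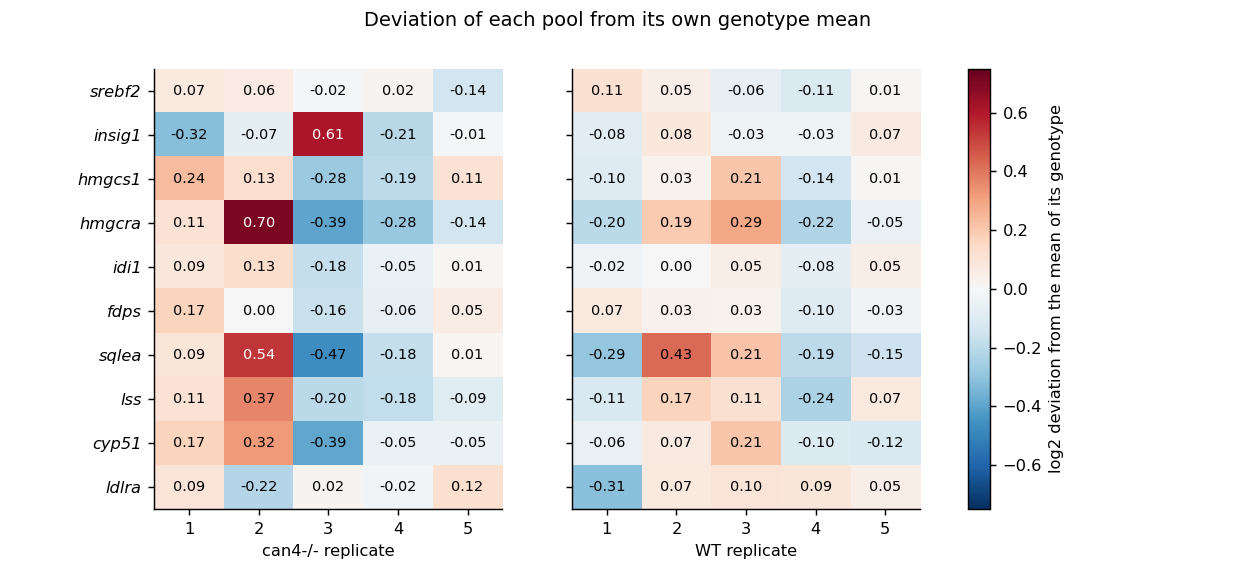
Log2 deviation of each pool from the mean of its own genotype for the 10 genes (rows), can4-/- replicates left and WT replicates right; red is above and blue below the mean. Replicate 2 of can4-/- is red for hmgcra (0.70), sqlea (0.54), lss (0.37) and cyp51 (0.32), and replicate 3 is blue for the same genes and red for insig1 (0.61).

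Markers of tissues that make or receive cholesterol did not stand equal in the pools. Over all genes tested 36.3% were higher and 36.9% lower. Counts of the hepatocyte markers lie near these shares, and the intestine, erythrocyte and interrenal lists held only 4 genes each. The counts of these lists are therefore no result about those tissues. The summed normalized counts of 6 neuron markers were 18001.8 to 20279.6 in can4-/- pools and 36918 to 40034 in WT pools, with all 6 lower, and those of 5 radial glia markers were 20737 to 21961 in can4-/- and 36132 to 37663 in WT, with all 5 lower. Of 5 markers of oligodendrocytes and Schwann cells, which make much cholesterol for myelin, 4 were lower and none higher (sum 940.2 to 1285 in can4-/-, 2221 to 2629 in WT). Proliferating cells gave 5 lower of 6 tested (sum 18529 to 22409 in can4-/-, 30831 to 32768 in WT). Of 6 genes of the yolk syncytial layer and lipoproteins 4 were higher and none lower, with a sum of 815697 to 992877 in can4-/- and 410704 to 513819 in WT, which is carried by apobb.1. Hepatocyte markers went both ways, 3 higher and 3 lower of 7 (sum 39961 to 48515 in can4-/-, 58763 to 72884 in WT), with cp, ceruloplasmin, at 2.59, ambp at 0.70 and hp at 0.52 on the higher side, and the liver fatty acid binding protein gene fabp10a at -2.21, tfa, transferrin, at -1.34 and a1cf at -0.36 on the lower side (log2 scale). The marker tfa, with the most counts of the list, averaged 19087 in can4-/- and 48356 in WT. Macrophage markers were higher for 3 of 4, of which only marco passed with library totals (sum 2266 to 2930.4 in can4-/-, 1351 to 1527 in WT). Intestinal markers were lower for 2 of 4, with cdx1b at -1.56 and vil1 at -1.09, and their sums overlapped between the genotypes. All 5 photoreceptor markers were lower and all 4 muscle markers higher, although actn3b of muscle did not pass with library totals. Of 4 genes each the neutrophil list had 3 higher and 1 lower, the erythrocyte list 1 higher and none lower, and the interrenal list 1 higher and 1 lower. The higher neutrophil genes were both genes named mmp13a (4.15 and 2.14) and mpx (0.35), while lyz was lower (-1.33). With library totals neither mpx of the neutrophil list nor alas2, the erythrocyte gene that was higher, passed. The part of these tissues in the levels of the 10 genes was not tested.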

How the data were processed

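Larvae were sequenced after rRNA removal with a stranded kit. The authors aligned reads with STAR (version 2.7.0f, per the submitters' processing notes) to GRCz11 and deposited raw counts per gene of Ensembl release 96, not normalized. Which program counted the reads, and with what strand setting, was not given in the sources used here. Their normalized and rlog values and their table of DESeq2 fold changes and p-values were not used.

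All genes were fitted together in R 4.3.3. The function filterByExpr (minimum count 10, minimum total 15) kept 23039 of 25911 genes, and edgeR 4.0.16 gave TMM factors and quasi-likelihood tests of genotype. Adjustment was by the Benjamini-Hochberg method across the 23039 genes. SE is the size of the log2 fold change over the square root of F. Depth was 29281449 to 45544046 counts per pool. No pair of pools agreed within sampling noise (20 pairs, chi-square per degree of freedom 4.79 to 27.2), so each counted as 1 replicate. The fit was also run on simulated counts with 200 genes changed, far fewer than were called in these data. That run therefore cannot show how the choice of scaling acts here.

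The 10 genes and all lists were chosen with earlier results of these data known. Lists hold zebrafish genes that the deposited annotation pairs with chosen human symbols, or of that name. Named genes are up to 4 largest increases and decreases of a list past the threshold at a mean normalized count of at least 50. Second copies, insig2, srebf1 and synthesis enzymes are named as well. Named genes outside this rule (mylipa, mylipb, mbtps1, amfrb, scd, npc2, soat1) and the ratios were chosen after their values were seen. The alternatives were DESeq2 1.42.0, voom in limma 3.58.1, RLE factors, scaling by library totals, no filter, a minimum of 50 counts in all libraries of 1 genotype, a replicate block, and leaving out each pool. Some single genes of the lists are not reported here. Without transcript lengths, levels were not compared between genes.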

Additional observations from a re-analysis of the deposited data

Results flagged for a closer look

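In 2 of 20 groups of 5 pools, a pool stood outside the others of its genotype by Dixon's criterion, where chance marks about 1 in 20. The first is insig1 in can4-/- replicate 3, with 2161 normalized counts where the other can4-/- pools had 1131 to 1399 (gap over range 0.740). The other is ldlra in WT replicate 1, with 998 normalized counts where the other WT pools had 1284 to 1328 (gap over range 0.866). Leaving these pools out gave log2 fold changes of 0.033 for insig1 and 0.91 for ldlra. Why these pools differ was not tested.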

How the results depend on the processing

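Under the 17 alternatives run, srebf2 (log2 fold change -0.52 to -0.31), hmgcs1 (-0.57 to -0.33), hmgcra (-1.54 to -1.21), sqlea (-1.13 to -0.83), lss (-0.87 to -0.65) and ldlra (0.80 to 1.03) kept direction and call, and insig1 passed under none (0.033 to 0.30). Scaling by library totals turned idi1 to -0.069 without a call. It also gave 0 further synthesis enzymes higher (1 with TMM), 2 SREBP processing genes higher (5 with TMM), 2 fatty acid genes higher (6 with TMM), and 0 non-sterol isoprenoid genes higher and 5 lower (4 and 2 with TMM). Over all genes tested, library totals gave 5920 higher and 10996 lower (8356 and 8505 with TMM). DESeq2 left 1 non-sterol isoprenoid gene lower, and the minimum of 50 counts left 5 efflux genes lower instead of 8, with 19593 genes tested. Leaving out 1 pool gave 1 to 2 of the 10 genes higher (2 without can4-/- replicate 3, where idi1 passed), 5 to 7 lower, and 1 to 2 non-sterol isoprenoid genes lower (1 without can4-/- replicate 2 or 3 or WT replicate 1, 3 or 4). The cause was not tested.

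The same replicate numbers occur in both genotypes, but same-numbered pools did not deviate together (correlations of -0.022 to 0.033 over genes, and 0 of 5 pools correlated best with their own number). With a replicate block 1 of the 10 genes was higher and 5 lower, hmgcra stood at -1.34, all 10 calls were the same, and 1 non-sterol isoprenoid gene was lower.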
